A study of Arabidopsis thaliana with 9 samples.

Results

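AtSPP, the signal peptide peptidase of Arabidopsis thaliana, has 22 candidate substrates that the study selected. The 7 described here are secreted or cell wall proteins among them whose ATH1 probe set is paired with 1 gene, and the peroxidase AT5G64100, which was measured in the same way, is given only beside them. They are a pathogenesis-related 1 (PR-1) family protein (AT4G33720), an ascorbate oxidase (AT5G21100), the beta-glucosidase BGLU41 (AT5G54570), an alpha-mannosidase (AT3G26720), a pair of DUF642 proteins (AT4G32460, and AT5G11420) and a galactose mutarotase-like protein (AT4G25900). AT3G26720 lies on chromosome 3, AT4G33720, AT4G32460 and AT4G25900 on chromosome 4, and the other three on chromosome 5. Each of the 7 was found on the arrays as 1 of 13513 probe sets paired with 1 gene, among 22746 tested. None had a second probe set among those 13513, and the remaining probe sets were not searched for them. Earlier results of these data were known when the 7 were chosen. The choice itself rests on the list of candidates and the annotation of probe sets and not on the measured values, with 1 exception. AT4G33720 is 1 of the 9 root candidates, which the study took from its own comparison of the AtSPP-overexpressed and Col-0 arrays. Its direction there is therefore not independent evidence, and its spread and its other differences involve the same arrays. The other 6 are pollen candidates picked by gene ontology terms and expression databases.

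A signal peptide is the hydrophobic stretch at the start of a protein that enters the endoplasmic reticulum. After signal peptidase has cut it from the protein, signal peptide peptidase, an aspartic protease inside the membrane, cuts the remnant within its membrane-spanning helix. The gene products that carry such peptides here act mainly in the cell wall, in the secretory pathway or in the vacuole, where glycosidases, oxidases and defence-related proteins work. An expression array measures the mRNA of these candidates and not the cleavage of their peptides. In the study's yeast reporter assay, the signal peptides of AT5G11420, AT4G25900 and AT3G26720 were scored as cleaved by AtSPP. Those of AT4G33720, AT5G21100, AT5G54570 and AT4G32460 were not, and that of AT4G32460 gave reporter signal also without AtSPP.

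All 9 samples were whole seedlings of the Col-0 background, grown for 7 days on half-strength MS medium with 0.8% agar, and RNA of 20 plants was pooled for each of the 9 arrays. The 3 AtSPP-overexpressed samples carried the full-length AtSPP between the CaMV 35S promoter, which is active in most tissues, and the Nos terminator, in the binary vectors named pZH2B, pZH3B and pZH4B for replicates 1, 2 and 3, while the methods name pZH2B alone. The 3 AtSPP knockdown samples carried an RNA interference construct in pBI-sense, anti sense-GW, with a 600 bp fragment of AtSPP in replicate 1 and a 400 bp fragment in replicates 2 and 3. Both kinds of line were homozygous, and the protocol speaks of 3 lines of each kind without saying which array holds which line. The 3 Col-0 samples were untransformed and are named as replicates only. For all groups, the p-values refer to the variation among these particular samples, and some of that variation may be technical.

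Signals are given in units of the authors' distribution free weighted (DFW) summary, a log-scale value that was taken to be log2. DFW draws the arrays together wherever they differ little, and the SD over the 9 arrays was 5.38e-06 for the median probe set. A difference in DFW units is therefore not the log2 of a fold change, and levels of different probe sets cannot be compared. In whole seedlings, fewer cells that express a gene and less mRNA per cell cannot be told apart.

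AtSPP itself (AT2G03120) checks the labels. Its signal was 8.187335, 8.226453 and 8.157005 in the AtSPP-overexpressed arrays, 7.922612, 7.936418 and 7.917926 in the knockdown arrays, and 7.961026, 7.979084 and 7.980493 in Col-0. All AtSPP-overexpressed arrays lay above and all knockdown arrays below the Col-0 arrays. AtSPP rose by 0.217 ± 0.0170 (SE, n = 3) in overexpressing plants (adjusted p = 0.0140, limma), a call that was lost without Col-0 replicate 1 (adjusted p = 0.0712) or Col-0 replicate 2 (0.0810). In the knockdown lines the difference of -0.0479 ± 0.0170 did not pass (adjusted p = 0.125, limma). This knockdown difference passed in 3 of 18 other settings. They were only the 6 arrays compared (adjusted p = 0.0303, limma), leaving out AtSPP-overexpressed replicate 2 (0.0379), and centring on array medians (0.00443). Centring called 22376 of 22746 probe sets in this comparison. The overexpressed lines exceeded the knockdown lines by 0.265 (adjusted p = 0.00183, limma).

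Across the array, 0.545% of the tested probe sets passed limma at an adjusted p under 0.05 when Col-0 was compared with AtSPP-overexpressed lines (68 up and 56 down in the latter), 13.5% when it was compared with knockdown lines (1493 up and 1579 down), and 4.33% between the AtSPP-overexpressed and the knockdown lines (515 higher and 471 lower). Centring on array medians changed these splits to 126 higher and 228 lower, 380 and 21996, and 21862 and 293, and quantile normalization changed the last to 1963 and 416. The array medians ran from 6.302863 to 6.302908 in the knockdown lines and from 6.302336 to 6.302342 in Col-0. In AtSPP-overexpressed replicates 1, 2 and 3 they were 6.302586, 6.302568 and 6.302340. The median difference from Col-0 over all probe sets was -3.11e-07 in the knockdown lines and 1.29e-07 in the AtSPP-overexpressed lines. The light-harvesting gene LHCB4.2, a shoot marker, rose by 0.00982 in the knockdown lines (adjusted p = 0.00144, limma). A marker or family gene counted as measured only if a probe set was paired with it alone, so others may be on the array. The summed signal of the 2 measured shoot markers of 5 was 22.5822 to 22.5840 in the knockdown lines, 22.5728 to 22.5735 in Col-0 and 22.5700 to 22.5730 in the AtSPP-overexpressed lines, and RCA, the other one, differed from Col-0 by 1.13e-07 in the knockdown lines (adjusted p = 0.992). None of the 4 measured root markers of 8, and not the 1 measured pollen marker of 7, passed in any comparison, also at an unadjusted limma p under 0.05. The part of shoot content in the results below was not tested.

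Of the 7 candidates, 0 passed when AtSPP-overexpressed lines were compared with Col-0, against 0.545% of all probe sets. At an unadjusted limma p under 0.05, 1 of 7 passed, against 12.8% of all probe sets. Between the knockdown lines and Col-0, 1 of 7 passed after adjustment, against 13.5% of all, and 3 of 7 before it, against 26.8%. Between the AtSPP-overexpressed and the knockdown lines the counts were 0 of 7, against 4.33%, and 1 of 7, against 19.5%. After adjustment, each count lay within 1 gene of the background share. The 3 groups enter the comparisons in pairs, so that each Col-0 array serves in both comparisons with Col-0, and the values below stand side by side for that reason. The 3 arrays of a group lay entirely above or below those of the other for 2 of 7 candidates when AtSPP-overexpressed lines were set against Col-0, as for 17% of all probe sets, for 2 of 7 when knockdown lines were (33.4% of all), and for 1 of 7 between the transgenic lines (25.4%). Of the 7 differences, 3 were above 0 in each comparison, against 53%, 43.8% and 59.3% of all probe sets. Their median was -4.82e-06 in AtSPP-overexpressed seedlings, against 1.29e-07 over all probe sets, -8.82e-06 in knockdown seedlings, against -3.11e-07, and -1.26e-06 between the transgenic lines, against 4.89e-07.

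**Figure D1:**
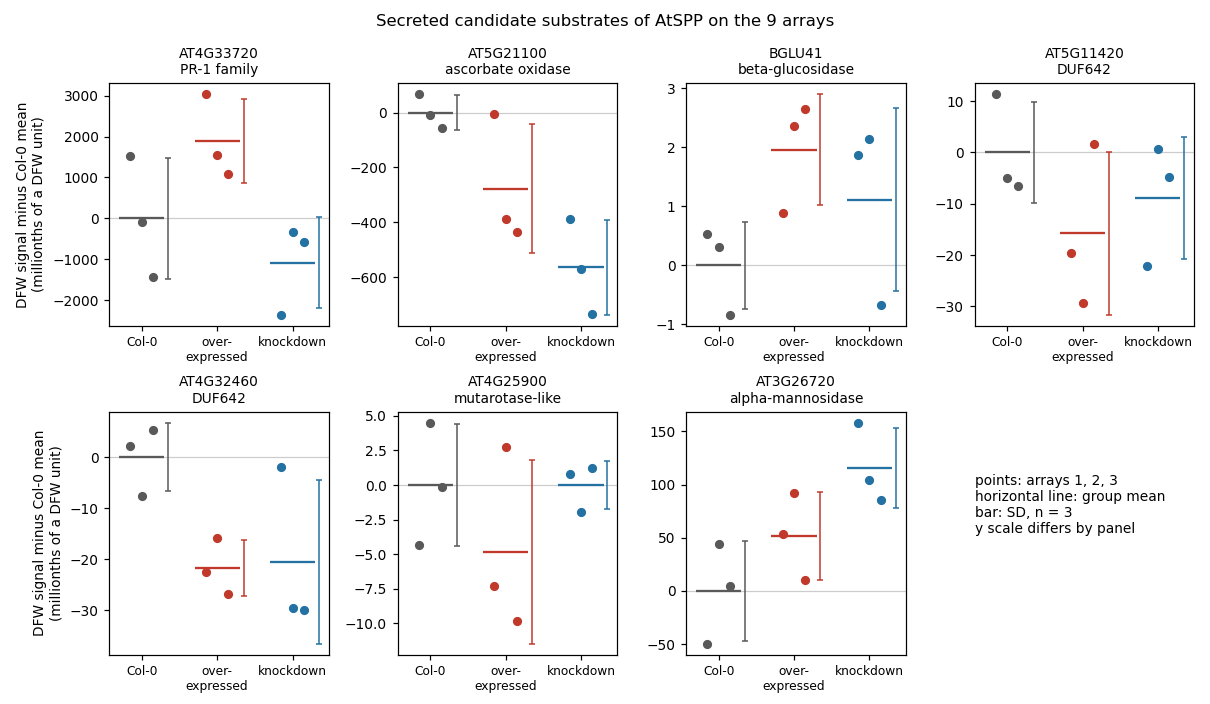
DFW signal of each of the 7 candidates on each array, less the mean of the 3 Col-0 arrays, in millionths of a DFW unit (y axis, scale differing by panel), for Col-0, AtSPP-overexpressed and knockdown lines (x axis); lines are group means and bars the SD (n = 3). The knockdown arrays of AT5G21100 all lie below its Col-0 arrays and those of AT3G26720 all above, while the groups of AT4G25900 overlap.

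The ascorbate oxidase AT5G21100 was the candidate that passed. Ascorbate oxidases are copper enzymes of the cell wall space that oxidize ascorbate with oxygen. The signal of AT5G21100 was 6.633244, 6.633165 and 6.633119 in Col-0, 6.632787, 6.632607 and 6.632442 in the knockdown lines, and 6.633170, 6.632788 and 6.632740 in the AtSPP-overexpressed lines. All 3 knockdown arrays lay below all 3 Col-0 arrays, with a gap of 3.32e-04 between the nearest arrays of the groups, which was so for 33.4% of all probe sets in either direction and for 18.5% in this one. AT5G21100 fell by 5.64e-04 ± 1.34e-04 (SE, n = 3) in the knockdown lines (adjusted p = 0.0393, limma), and under quantile normalization too (-2.96e-04). Centring also gave a negative value (-0.00112), but it called 21996 probe sets lower and 380 higher, so its sign says nothing particular of this gene. The call was lost when 1 of 6 arrays was left out: without AtSPP-overexpressed replicate 2 (adjusted p = 0.0555), knockdown replicate 2 (0.104) or 3 (0.119), or Col-0 replicate 1 (0.115), 2 (0.101) or 3 (0.0835). With 1 array left out the adjusted p in limma ran from 0.0173 to 0.119, and the lowest over all settings, 1.15e-05, came from centring.

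In the AtSPP-overexpressed lines AT5G21100 was -2.77e-04 ± 1.34e-04 from Col-0 (adjusted p = 0.478, limma), with replicate 1 inside the Col-0 arrays and replicates 2 and 3 below them. The AtSPP-overexpressed arrays exceeded the knockdown arrays by 2.87e-04 on average (adjusted p = 0.313), and the groups overlapped by a single array. AT5G21105, another ascorbate oxidase whose locus number follows closely, was looked up after these values were seen, and it stood at 5.04e-06 from Col-0 in the knockdown lines (adjusted p = 0.363) and at -9.11e-06 in the AtSPP-overexpressed lines (adjusted p = 0.269), a sign that quantile normalization turned (6.04e-04), and centring turned the first (-5.47e-04). The locus of AT5G21100 overlaps the miRNA gene AT5G03305 in the RefSeq table, and what the probes would take from it was not tested.

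The PR-1 family protein AT4G33720 had by far the widest spread of the 7. PR-1 proteins are small secreted proteins with a CAP domain, and the founding members accumulate on infection. The signal of AT4G33720 was 7.998870, 7.997396 and 7.996913 in the AtSPP-overexpressed lines, 7.997353, 7.995753 and 7.994395 in Col-0, and 7.993484, 7.995513 and 7.995260 in the knockdown lines. Col-0 spanned the gap between the other groups, with replicate 1 among the AtSPP-overexpressed arrays and replicate 3 among the knockdown arrays. The AtSPP-overexpressed lines were 0.00189 ± 9.49e-04 (SE, n = 3) above Col-0 (adjusted p = 0.493, limma), in the comparison on which the study chose the gene, and this was the 222nd size among all differences. The knockdown lines were -0.00108 ± 9.49e-04 from Col-0 (adjusted p = 0.564). The AtSPP-overexpressed and knockdown arrays did not overlap, with a gap of 0.00140, as for 15.1% of all probe sets in this direction, and differed by 0.00297, an amount that did not pass over all probe sets (adjusted p = 0.151, limma) and whose 95% interval was 7.02e-04 to 0.00525. Its adjusted p was 0.117 or more with any single array left out.

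The alpha-mannosidase AT3G26720 belongs to glycosyl hydrolase family 38, whose members remove mannose from glycans. Its signal was 7.181037, 7.180983 and 7.180964 in the knockdown lines, 7.180829, 7.180923 and 7.180883 in Col-0, and 7.180932, 7.180971 and 7.180889 in the AtSPP-overexpressed lines. The knockdown arrays all lay above the Col-0 arrays, with a gap of 4.12e-05, as 14.9% of all probe sets did, and the AtSPP-overexpressed arrays overlapped with both. The difference of the knockdown lines from Col-0, 1.16e-04 ± 3.28e-05 (SE, n = 3), did not pass (adjusted p = 0.0665, limma), and its sign turned under quantile normalization (-8.42e-04, adjusted p = 0.0226) and under centring (-4.36e-04, adjusted p = 5.19e-05). The AtSPP-overexpressed lines stood at 5.18e-05 from Col-0 (adjusted p = 0.613, limma) and at -6.43e-05 from the knockdown lines (adjusted p = 0.356).

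AT4G32460, known as BIIDXI, encodes a DUF642 protein, a plant family of cell wall proteins, some of which interact with pectin methylesterases. Its signal was 7.476221, 7.476211 and 7.476224 in Col-0, 7.476196, 7.476203 and 7.476192 in the AtSPP-overexpressed lines, and 7.476217, 7.476189 and 7.476189 on the knockdown arrays. All AtSPP-overexpressed arrays lay below Col-0, with a gap of 8.27e-06, as 7.28% of all probe sets did, and so did knockdown replicates 2 and 3, while knockdown replicate 1 lay inside the range of Col-0. The differences from Col-0 were -2.17e-05 ± 8.24e-06 in the AtSPP-overexpressed lines (adjusted p = 0.341, limma) and -2.05e-05 ± 8.24e-06 in the knockdown lines (adjusted p = 0.170), with n = 3 in each group. Without knockdown replicate 1, the only array of the 600 bp construct, the knockdown difference was -2.98e-05 and passed (adjusted p = 0.0242, limma), as did 8.82% of all probe sets in that fit. The AtSPP-overexpressed and knockdown lines differed by -1.26e-06 (adjusted p = 0.967). The locus overlaps the protein-coding gene AT4G32450 in the RefSeq table, and what the probes would take from that transcript was not tested.

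For the other DUF642 candidate, AT5G11420, the group means had the same order, but the arrays of no group stood apart. Its signal was 8.638850, 8.638834 and 8.638832 in Col-0, 8.638819, 8.638809 and 8.638840 in the AtSPP-overexpressed lines, and 8.638817, 8.638839 and 8.638834 on the knockdown arrays. The groups overlapped in each comparison, because 1 AtSPP-overexpressed array and 2 knockdown arrays lay within the Col-0 range. The differences were -1.58e-05 ± 9.98e-06 (SE, n = 3) for the AtSPP-overexpressed lines (adjusted p = 0.611, limma), with a 95% interval of -3.97e-05 to 8.09e-06, and -8.82e-06 for the knockdown lines (adjusted p = 0.673), with an interval of -3.27e-05 to 1.51e-05.

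BGLU41, a family 1 glycosyl hydrolase that splits glucose from beta-glucosides, had the narrowest spread. Its signals were all near 5.6039, and relative to the Col-0 mean they stood, in millionths of a unit, at 0.879, 2.35 and 2.64 in the AtSPP-overexpressed lines, at 1.87, 2.13 and -0.67 on the knockdown arrays, and at 0.533, 0.309 and -0.841 in Col-0. The AtSPP-overexpressed arrays were all above Col-0, as for 9.71% of all probe sets, but by a gap of only 3.46e-07, and knockdown replicate 3 lay within Col-0. The mean differences of 1.96e-06 ± 9.97e-07 (adjusted p = 0.501, limma, n = 3) and 1.11e-06 (adjusted p = 0.575) did not pass, and both signs turned under centring (-1.57e-04 and -5.51e-04). The locus overlaps the long non-coding RNA gene AT5G54569 in the RefSeq table.

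The galactose mutarotase-like protein AT4G25900 shares the fold of aldose 1-epimerases, enzymes that interconvert the anomers of sugars. Its signal was 8.038466, 8.038476 and 8.038463 in the AtSPP-overexpressed lines, 8.038474, 8.038471 and 8.038474 on the knockdown arrays, and 8.038469, 8.038477 and 8.038473 in Col-0, so that all groups overlapped. The knockdown mean equalled the Col-0 mean within 1.97e-08 (adjusted p = 0.998, limma), with a 95% interval of -8.84e-06 to 8.88e-06, but the difference passed with a negative sign under quantile normalization (-0.00100, adjusted p = 0.0184) and centring (-5.52e-04, adjusted p = 1.15e-05). The AtSPP-overexpressed lines were -4.82e-06 ± 3.70e-06 (SE, n = 3) from Col-0 (adjusted p = 0.700), and only under quantile normalization did this difference pass (-0.00120, adjusted p = 0.0176).

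**Figure D2:**
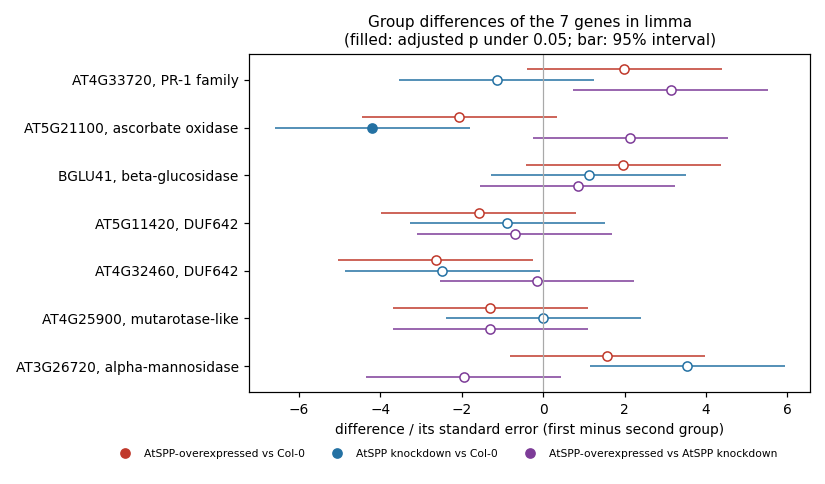
Difference of each candidate between groups divided by its standard error in limma (x axis), with 95% intervals, for the 3 comparisons (colours); filled points have an adjusted p under 0.05. Only the knockdown difference of AT5G21100 is filled.

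The 7 candidates differed widely in how much they varied. The SD over the 9 arrays was 0.00168 for AT4G33720, wider than in 98.7% of all probe sets, and 2.86e-04 for AT5G21100, wider than in 95.5%. It was 6.22e-05 for AT3G26720 (87.7%), 1.40e-05 for AT4G32460 (69.3%), 1.30e-05 for AT5G11420 (68.0%), 4.74e-06 for AT4G25900 (47.3%) and 1.30e-06 for BGLU41 (18.9%). The PR-1 family gene and the ascorbate oxidase thus stood in the widest 5% of the array by this description, and BGLU41 in the narrowest 20%. The spread of AT4G33720 is not independent of its choice, since the study took it from a comparison of the AtSPP-overexpressed and Col-0 arrays.

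**Figure D3:**
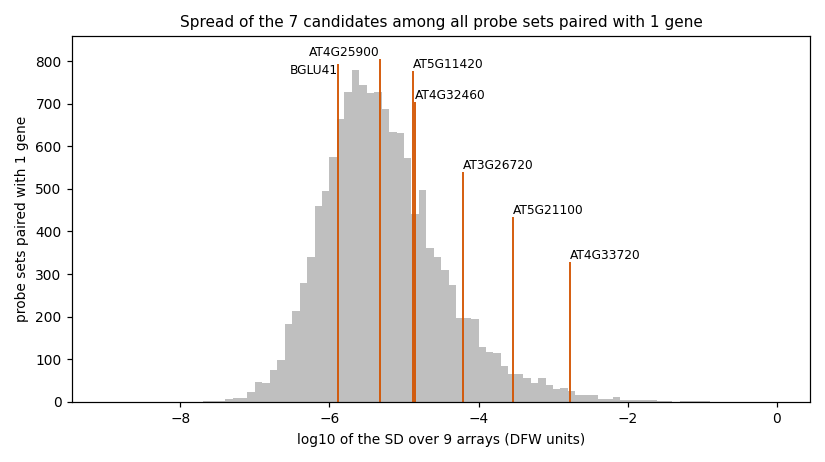
Histogram of the SD over the 9 arrays (x axis, log10 of DFW units) for the probe sets paired with 1 gene (y axis, number of probe sets), with the 7 candidates as vertical lines. AT4G33720 (SD 0.00168) and AT5G21100 (2.86e-04) lie in the right tail and BGLU41 (1.30e-06) left of the peak.

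Profiles over the 9 arrays were compared between the candidates by Pearson's r, as a description over arrays that share their normalization. The 21 pairs ran from -0.66 for AT5G11420 and AT3G26720 to 0.69 for AT5G21100 and AT4G32460, and 4 pairs had a size of r above 0.5. The pair of DUF642 genes had an r of 0.02. Among all other probe sets paired with 1 gene, the profile most like that of AT5G21100 was that of AT1G73760 (r = 0.98), followed by AT2G44310 (0.98), and 170 probe sets exceeded 0.9. For AT3G26720 they were AT1G61080 (r = 0.98) and AT5G66810 (0.97), with 93 above 0.9. For AT4G33720 they were AT1G42650 (r = 0.96) and AT5G58610 (0.94), and for AT5G11420, AT3G04540 (0.98) and AT1G36230 (0.95). For BGLU41 they were AT2G34320 (r = 0.95) and AT2G06120 (0.95), for AT4G25900, AT5G18900 (0.94) and AT3G22520 (0.93), and for AT4G32460, AT1G43910 (0.93) and AT1G65990 (0.91). These are the highest of 13513 correlations over 9 arrays.

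The families of the candidates were read from lists of their members. Genes not counted as measured may still have probe sets paired with several genes or not listed, so the counts may be incomplete. In the PR-1 family, 19 of 22 genes were measured, and 0 passed in the AtSPP-overexpressed lines, against 0.545% of all probe sets (1 at an unadjusted limma p under 0.05, against 12.8%). In the knockdown lines 1 fell and 0 rose, where 6.94% of all probe sets fell and 6.56% rose, with a median difference of -1.23e-06 over the family against -3.11e-07 over all probe sets. The gene was AT4G25780, with signals of 6.227949, 6.228084 and 6.227978 in the knockdown lines against 6.228505, 6.228595 and 6.228474 in Col-0 (-5.21e-04, adjusted p = 0.00663, limma). Its 3 knockdown arrays lay below every other array, and its AtSPP-overexpressed arrays overlapped with Col-0 (1.76e-05, adjusted p = 0.971).

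Of the 10 DUF642 genes, 8 were measured. None passed in the AtSPP-overexpressed lines, against 0.545% of all probe sets (2 at an unadjusted limma p under 0.05, against 12.8%), and in the knockdown lines 1 rose and 2 fell, none of them a candidate, so that 3 of 8 passed where 13.5% of all probe sets did. The family's median difference was -1.39e-05 in AtSPP-overexpressed seedlings and -1.46e-05 in knockdown seedlings. AT2G34510 rose, with 7.212388, 7.212018 and 7.212428 in the knockdown lines against 7.210510, 7.210598 and 7.210839 in Col-0 (0.00163, adjusted p = 0.00319). AT1G29980 fell by 1.27e-04 (adjusted p = 0.00367, limma), and AT2G41800, known as TEEBE, fell by 6.72e-05 (adjusted p = 0.0119), a direction that quantile normalization turned (5.83e-05). All 3 kept their calls in the knockdown lines with each array left out in turn.

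**Figure D4:**
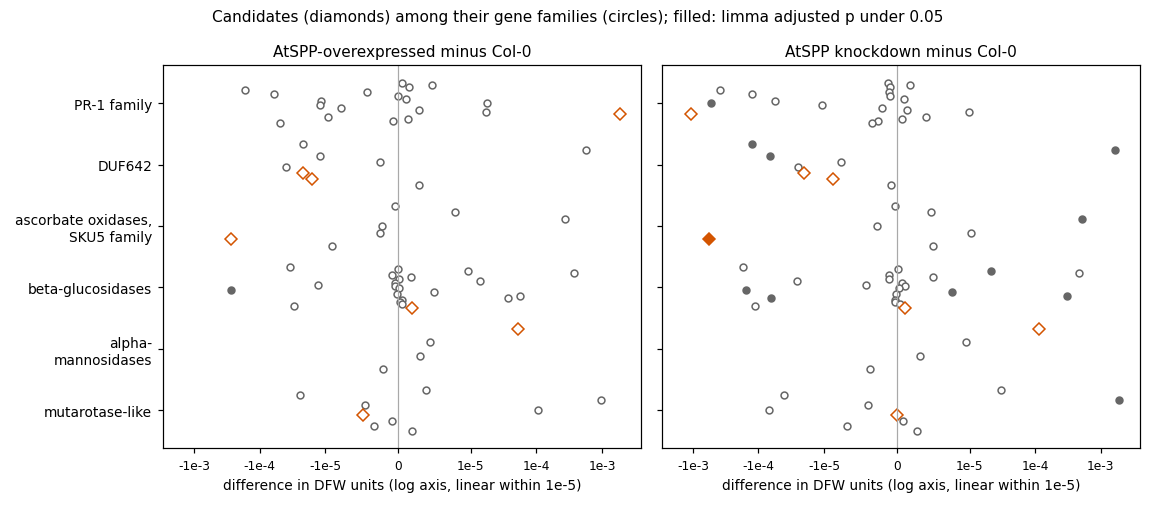
Difference of each measured family member from Col-0 (x axis, DFW units, symmetric log axis, linear within 1e-5) in the AtSPP-overexpressed lines (left) and knockdown lines (right), by family (y axis); diamonds are the candidates, circles other members, filled symbols have an adjusted p under 0.05. In the left panel 1 symbol is filled, the beta-glucosidase BGLU44, and in the right panel AT5G21100 is the only filled candidate.

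Of 22 ascorbate oxidases, SKU5 and SKU5-similar proteins, 7 were measured. None passed in the AtSPP-overexpressed lines, against 0.545% of all probe sets (3 at an unadjusted limma p under 0.05, against 12.8%). In the knockdown lines 2 of 7 passed, against 13.5% of all probe sets: AT5G21100 fell and SKU5, a cell wall protein with a role in directional root growth, rose. SKU5 had signals of 9.043956, 9.043825 and 9.043812 in the knockdown lines and of 9.043325, 9.043358 and 9.043328 in Col-0 (5.27e-04, adjusted p = 0.00533, limma), but the call was lost under quantile normalization (2.66e-04, adjusted p = 0.249), and its sign turned under centring (-2.49e-05, adjusted p = 0.703). The median difference of the list was -2.18e-06 in AtSPP-overexpressed seedlings and 4.68e-06 in knockdown seedlings.

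The beta-glucosidases had 22 of 47 genes measured, of which 1 fell in the AtSPP-overexpressed lines, as 0.246% of all probe sets did, and 3 rose and 2 fell in the knockdown lines, against 6.56% and 6.94% of all probe sets. The median differences of the family were 2.19e-07 and 7.10e-08. BGLU44 fell by 2.73e-04 in AtSPP-overexpressed seedlings (adjusted p = 0.0412, limma) and fell by 1.55e-04 in knockdown seedlings (adjusted p = 0.0343). With any 1 of the 9 arrays left out the first call was lost (adjusted p from 0.0564 to 0.140), and the second was lost without AtSPP-overexpressed replicate 3 or any 1 array of the knockdown or Col-0 groups (0.0321 to 0.0931 over the 9 arrays), and under quantile normalization both differences were 0. BGLU16 rose in the knockdown lines by 3.07e-04 (adjusted p = 0.00218), but fell under quantile normalization (-0.00102, adjusted p = 0.00493) and centring (-2.45e-04, adjusted p = 0.00978). BGLU47 fell by 6.40e-05 (adjusted p = 0.0487), and this call was lost with any 1 array left out (0.0520 to 0.133) and under quantile normalization, where the difference was 0.

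Of the 4 alpha-mannosidases of family 38, all were measured and none passed in any comparison in limma, with 1, 2 and 0 at an unadjusted p under 0.05 in the AtSPP-overexpressed lines against Col-0, the knockdown lines against Col-0 and the AtSPP-overexpressed against the knockdown lines, where 12.8%, 26.8% and 19.5% of all probe sets stood. Their median differences from Col-0 were 3.75e-06 and 6.325e-06. All 9 galactose mutarotase-like genes were measured, and 1 rose in the knockdown lines, against 6.56% of all probe sets. This was AT3G47800, with 7.951777, 7.952193 and 7.952365 in the knockdown lines, 7.950972, 7.951209 and 7.951287 in the AtSPP-overexpressed lines and 7.950286, 7.949876 and 7.950384 in Col-0. The knockdown difference was 0.00193 (adjusted p = 0.00269, limma), and the AtSPP-overexpressed difference of 9.74e-04 did not pass (adjusted p = 0.105), although its arrays too lay above all Col-0 arrays. The median differences of this family were -8.75e-07 and 1.97e-08. Between the transgenic lines, where 4.33% of all probe sets passed, 1 PR-1 family gene was higher in the AtSPP-overexpressed lines and 0 lower, 2 DUF642 genes were higher and 1 lower, 1 beta-glucosidase was higher and 1 lower, 1 mutarotase-like gene was lower, and 0 genes of the ascorbate oxidase and SKU5 list passed (2 at an unadjusted limma p under 0.05). Among the 15 other candidates, AT5G64100, a peroxidase, was the only one measured by a probe set paired with 1 gene. It stood at 3.67e-04 from Col-0 in the AtSPP-overexpressed lines (adjusted p = 0.238, limma) and at 3.36e-04 in the knockdown lines (adjusted p = 0.107). AT5G64100 too is a root candidate, taken by the study from its comparison of the AtSPP-overexpressed and Col-0 arrays. Its direction in that comparison is therefore not independent evidence, and its knockdown difference uses the same Col-0 arrays.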

How the data were processed

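The authors hybridized 9 ATH1 arrays, normalized them in R with DFW and deposited the resulting signals, which lie on a log scale and were read as log2 without change. Log base, software version and background correction: not given in the sources used here. After removal of 64 AFFX control probe sets, 22746 were tested. The platform annotation pairs 13513 of them with 1 gene and 503 with several, and it does not list 8730. Symbols and overlapping loci come from the RefSeq gene table. All 9 arrays entered 1 fit in limma 3.58.1 (R 4.3.3) with 6 residual degrees of freedom, and p-values were two-sided, Benjamini-Hochberg adjusted over every tested probe set and read at 0.05. The procedure was tested on simulated data. Rank products, which the study used, were not run here, and ranks by size are a description. An exact permutation test of 3 against 3 arrays cannot go below p = 0.1 and was not used.

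The members and lists were chosen with earlier results of these data known. Named are the 7 candidates, AtSPP, the 2 most alike profiles of each candidate, and up to 3 genes a list that passed, by size of difference. The brightest probe set stands for a gene. Outside these rules, the markers LHCB4.2 and RCA, the candidate AT5G64100 and AT5G21105 are also named. AT5G21105 was picked after the values of AT5G21100 were seen. The alternatives, 1 choice at a time, changed the scaling (quantile, array medians), the features (without the 25% dimmest, or with 1 gene), the variance model (trend, robust, weights), the arrays (the 6 compared, or each left out) or the design (a replicate block). Precision is limited by the number of arrays, and detection calls were not used.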

Additional observations from a re-analysis of the deposited data

Results flagged for a closer look

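AtSPP-overexpressed and knockdown lines differ in the test of the difference itself, or have all their arrays on opposite sides of the Col-0 mean, for the genes named here. Values are AtSPP-overexpressed minus knockdown in DFW units, with adjusted p from limma. Of the candidates this concerns AT4G33720 alone, at 0.00297, where the test of the difference did not pass (adjusted p = 0.151). AtSPP, the targeted gene, differed by 0.265 (adjusted p = 0.00183).

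LHCB4.2 and AT5G21105 were left out of this flagging, although both meet its rule. LHCB4.2 differed by -0.0115 (adjusted p = 0.00214, limma). AT5G21105 differed by -1.41e-05 (adjusted p = 0.0531), with its arrays on opposite sides of the Col-0 mean. The other flagged genes belong to the family lists. The PR-1 family gene AT4G25780 differed by 5.38e-04 (adjusted p = 0.0144), a call lost without knockdown replicate 1 (0.0558) or 3 (0.0609). The DUF642 gene AT2G34510 differed by -0.00107 (adjusted p = 0.0265; lost without AtSPP-overexpressed replicate 1 or 3, knockdown replicate 1 or 3, or Col-0 replicate 2, up to 0.0946). AT1G29980 differed by 1.05e-04 (adjusted p = 0.0154), lost without AtSPP-overexpressed replicate 1 or 3 or any 1 knockdown array, up to 0.0641. AT2G41800 differed by 5.53e-05 (adjusted p = 0.0460), lost without Col-0 replicate 3 or any 1 array of the transgenic groups, up to 0.134. BGLU16 differed by -2.52e-04 (adjusted p = 0.00981) and kept its call with each array left out (0.0196 to 0.0372), but its sign turned under quantile normalization and centring. BGLU47 differed by 1.01e-04 (adjusted p = 0.0250), lost without AtSPP-overexpressed or knockdown replicate 1 or 3, up to 0.0761. AT3G47800 differed by -9.56e-04 (adjusted p = 0.0498), a call lost with any 1 array left out (0.0518 to 0.146). The replicate block ended the calls of AT4G25780 (adjusted p = 0.0520, limma), AT2G34510 (0.0786), AT1G29980 (0.0641), BGLU47 (0.0581) and AT3G47800 (0.0736). With only the 6 arrays compared, AT4G25780 (0.0548), AT2G34510 (0.0789), BGLU47 (0.0701) and AT3G47800 (0.0910) lost theirs. With probe sets of 1 gene alone, AT2G41800 (0.0557) and AT3G47800 (0.0600) did. Quantile normalization also ended the calls of AT2G34510 (-7.38e-04, adjusted p = 0.0837), AT1G29980 (3.21e-04, 0.557), AT2G41800 (difference 0), BGLU47 (9.81e-05, 0.154) and AT3G47800 (-1.22e-04, adjusted p = 1).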

How the results depend on the processing

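Counts of probe sets called, which were 124 in the AtSPP-overexpressed lines against Col-0, 3072 in the knockdown lines against Col-0 and 986 between the transgenic lines, became 2625, 6917 and 2379 under quantile normalization, 354, 22376 and 22155 under centring on array medians, and 39, 1439 and 375 with probe sets of 1 gene alone; with only the 6 arrays compared, the first was 0 and the last 428. Leaving out each array in turn gave 5 to 51, 1540 to 2917 and 343 to 923. Of the candidates, 1, 3 and 0 were called under quantile normalization and 0, 7 and 7 under centring, which moved the median difference of all probe sets to -1.59e-04, -5.52e-04 and 3.94e-04; with 1 array left out, 0 to 2 were called in the knockdown lines, and 0 in the others. The cause was not tested. Of 189 candidate values with 1 array left out, 175 kept their direction and side of the threshold, and of 186 under other settings, 157. BGLU41 was among the 25% dimmest probe sets and has no value without them.

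Deviations of arrays from their group means correlated at -0.138 to 0.208 between groups for the same replicate number, and at -0.222 to 0.214 for different numbers. These ranges overlap, so they cannot settle whether equal numbers mark a shared batch. With the replicate block, 2 probe sets were called in the AtSPP-overexpressed lines and 590 between the transgenic lines, AT5G21100 kept its call in the knockdown lines (adjusted p = 0.0196), and AtSPP lost its call in the AtSPP-overexpressed lines (0.0568); it also lost it with only the 6 arrays compared (0.106).

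Directions turned as follows, in DFW units. Quantile normalization, AtSPP-overexpressed against Col-0: AT3G26720 -3.43e-04, AT2G41800 5.83e-05, BGLU16 -3.10e-04, AT5G21105 6.04e-04. Quantile normalization, knockdown against Col-0: AT4G25900 -0.00100, AT3G26720 -8.42e-04, AT2G41800 5.83e-05, BGLU16 -0.00102. Quantile normalization, AtSPP-overexpressed against knockdown: AT4G32460 4.45e-05, AT3G26720 4.99e-04, BGLU16 7.09e-04, AT5G21105 1.36e-04. Centring, AtSPP-overexpressed against Col-0: BGLU41 -1.57e-04, AT3G26720 -1.07e-04, AT4G25780 -1.41e-04, BGLU16 -1.04e-04, BGLU47 -1.21e-04. Centring, knockdown against Col-0: BGLU41 -5.51e-04, AT4G25900 -5.52e-04, AT3G26720 -4.36e-04, SKU5 -2.49e-05, BGLU16 -2.45e-04, AT5G21105 -5.47e-04. Centring, AtSPP-overexpressed against knockdown: AT5G11420 3.86e-04, AT4G32460 3.92e-04, AT4G25900 3.89e-04, AT3G26720 3.29e-04, SKU5 1.38e-04, BGLU16 1.42e-04, BGLU44 2.76e-04, AT5G21105 3.79e-04. Array weights: AT4G25900 -9.98e-07 (knockdown against Col-0), AT4G32460 1.03e-06 (between the transgenic lines), AT4G25780 -4.81e-06 (AtSPP-overexpressed against Col-0). With 1 array left out, the turned values were within -2.15e-06 to 2.27e-06 for AT4G25900 (knockdown against Col-0), -5.96e-06 to 8.02e-06 for AT4G32460 and -4.23e-08 to 1.39e-06 for BGLU41 (both between the transgenic lines), and -5.68e-05 to 6.33e-05 for AT4G25780 (AtSPP-overexpressed against Col-0).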
